A study of Homo sapiens with 12 samples.

Results

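The Polycomb repressor genes described here were 10 named genes (EZH1, EZH2, EED, SUZ12, JARID2, RING1, RNF2, BMI1, CBX2 and PCGF6) among the 35621 genes listed in any of the single-cell tables. They were taken by their Ensembl identifiers, matched to GENCODE. Polycomb proteins keep developmental genes silent through complexes that modify histones. In Polycomb repressive complex 2 (PRC2), the methyltransferase EZH2 or its relative EZH1 acts with EED, which binds the mark the complex makes, and SUZ12, the scaffold, to methylate lysine 27 of histone H3, and JARID2 helps to bring the complex to chromatin. In Polycomb repressive complex 1 (PRC1), the E3 ligases RING1 and RNF2 ubiquitinate histone H2A, each paired with 1 PCGF protein such as BMI1 or PCGF6, while CBX2 belongs to the canonical form that reads the H3 mark and compacts chromatin.

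The study introduced LAST-seq, which amplifies the single-stranded RNA of a cell directly before any second strand is made, and set it beside CEL-seq2 and SMART-seq. LAST-seq and CEL-seq2 count unique molecular identifiers (UMIs) at 3′ ends, whereas SMART-seq counts reads along the transcript. HEK293T, a human embryonic kidney line, gave 2 LAST-seq and 2 CEL-seq2 libraries of 10 sorted live cells each with no cell cycle gate, 1 LAST-seq library of 10 portions of 15 pg purified RNA, and 1 lysate library of 10 portions for each of the 2 UMI methods. eHAP1, a haploid line grown with 10-Deacetylbaccatin-III, was profiled by LAST-seq as wild type (WT) and as SCC4 knockout (KO) in 2 batches each, from clonal populations sorted as haploid G1 cells. By the labels, more cells were pooled for eHAP1 than for HEK293T, and no spike-in mix is named for eHAP1. The 2 LAST-seq libraries of HEK293T cells had different spike-in mixes, as did the 2 CEL-seq2 libraries. SCC4, listed as MAU2, is a subunit of the cohesin loader, and the KO was made with Cas9 ribonucleoprotein, so that genotype and clone cannot be told apart. SMART-seq was run on 6 HEK293T cells and on 10 and 16 portions of lysate. Nothing in the labels stated that libraries or batches were separate cultures, so the p-values below measure only the spread between these samples.

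The HEK293T UMI libraries held 797568 to 1552794 UMIs, with 62782 to 195230 in a well. The eHAP1 batches held 73 and 75 WT cells and 77 and 76 KO cells, with medians of 89891 and 143765 (WT) and 81736 and 152295 (KO) per cell and a largest cell of 925612 in WT batch 2. Levels are given in CPM, the share of a gene in the summed UMIs or values of its library or batch, scaled to 1000000. MAU2 stood at 44.3 and 41.2 CPM in WT and at 9.18 and 14.5 CPM in KO, lower in both KO batches, although 33 of 77 and 70 of 76 KO cells still had a value for it. Cell type markers separated the lines poorly. In the LAST-seq HEK293T cells, 2 and 3 of 5 HEK293T markers were detected (NEFM at 0 in both, PAX2 and LHX1 at 0 in the first). Each WT batch had 3 of 5 and each KO batch 5 of 5. Of 7 blood lineage markers, 2 and 3 were detected in the WT batches. Each KO batch and each LAST-seq HEK293T cell library had 3 of 7. PTPRC, SPI1 and GATA1 were at 0 in every eHAP1 batch, and SPI1 and GATA1 also in both LAST-seq HEK293T cell libraries. The same well barcodes were used in most libraries (70 of 73 WT batch 1 barcodes recur in WT batch 2), so barcodes alone did not identify a cell.

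The eHAP1 values were whole numbers but did not behave as plain UMI counts. Among genes with at least 5 cells at 1 and at least 5 cells at 3, no cell had the value 2 for 36.5% and 64.3% of genes in WT batches 1 and 2 and for 63.5% and 42.4% in KO batches 1 and 2. Entries equal to 2 were 0.509 to 0.977 times as many as entries equal to 3 in the eHAP1 batches, against 1.35 to 1.64 times in all other tables. Within a genotype, 93.2% of the genes that could be judged skipped the value 2 in exactly 1 of the 2 batches. JARID2 was one of them, with 17 WT batch 1 cells and 25 KO batch 2 cells at exactly 2, but 0 WT batch 2 and 0 KO batch 1 cells. The study's methods name a batch effect adjustment before its bursting analysis, but whether the deposited table is its output was not stated in the sources used here. Likeness between batches of 1 genotype was therefore not taken as independent support, no counting interval was attached to an eHAP1 value, and the share of cells with a value of at least 1 is given as a second measure.

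Promoter sequences of 3 members that stood higher in KO than WT (BMI1, PCGF6 and RNF2) and of JARID2, which stood lower, are shown to give the genomic context of the values that follow. Each run is the 250 bases before a RefSeq transcript start in GRCh38.p14, written 5′ to 3′ on the gene's strand. Capitals mark a match, on either strand, to 1 of 4 motifs searched: GGCGGGAA (E2F), CCAAT (NF-Y box), TGACGTCA (cyclic AMP response element) and TATAAA (core promoter element). The windows are chr10:22320849-22321098 (plus strand) for the first BMI1 start, chr10:103351141-103351390 (minus strand) for PCGF6, chr1:185045308-185045557 (plus strand) for RNF2 and chr6:15245819-15246068 (plus strand) for the first JARID2 start.
BMI1: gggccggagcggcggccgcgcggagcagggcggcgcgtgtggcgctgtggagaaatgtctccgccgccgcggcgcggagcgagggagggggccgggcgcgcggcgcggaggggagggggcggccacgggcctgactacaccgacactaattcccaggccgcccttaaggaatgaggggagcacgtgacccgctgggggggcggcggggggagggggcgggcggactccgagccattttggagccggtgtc
PCGF6: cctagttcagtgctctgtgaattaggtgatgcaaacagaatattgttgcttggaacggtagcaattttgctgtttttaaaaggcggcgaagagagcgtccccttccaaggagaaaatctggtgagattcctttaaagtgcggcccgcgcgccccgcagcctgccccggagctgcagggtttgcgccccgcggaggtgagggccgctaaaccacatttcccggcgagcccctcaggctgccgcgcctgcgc
RNF2: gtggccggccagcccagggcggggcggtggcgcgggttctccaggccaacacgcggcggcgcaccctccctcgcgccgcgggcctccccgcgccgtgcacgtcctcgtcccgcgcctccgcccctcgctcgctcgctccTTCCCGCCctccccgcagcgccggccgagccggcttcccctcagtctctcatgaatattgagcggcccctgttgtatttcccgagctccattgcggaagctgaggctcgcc
JARID2: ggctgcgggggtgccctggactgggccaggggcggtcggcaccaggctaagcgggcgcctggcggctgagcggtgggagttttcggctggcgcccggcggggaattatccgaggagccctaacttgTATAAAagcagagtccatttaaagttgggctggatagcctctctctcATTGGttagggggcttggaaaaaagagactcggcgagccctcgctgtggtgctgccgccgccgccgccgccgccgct
The BMI1 and PCGF6 windows held none of the 4 motifs. RNF2 held 1 E2F motif on the reverse strand, and this motif occurred in 2.72% of 35116 promoters of the same length. The first JARID2 start held 1 TATAAA motif, beginning 124 bases before the start, and 1 NF-Y box on the reverse strand. These motifs were found in 10.7% and 32.0% of promoters. The second JARID2 start held 2 cyclic AMP response elements, found in 1.65%. BMI1 and RNF2 were rich in CpG, with 35 and 34 CpG in 250 bases, PCGF6 had 19 and JARID2 22, and the median over all promoters was 11. The table gave 12 starts for 9 members, with no entry for CBX2. Of the other members, EZH2 lies at chr7:148807257-148884321 (minus strand, GRCh38, GENCODE), EZH1, SUZ12 and CBX2 on chromosome 17 at chr17:42700275-42745049 (minus), chr17:31937007-32001038 (plus) and chr17:79778148-79787983 (plus), and EED at chr11:86201212-86278813 (plus). These motif matches describe letters in a window and say nothing of which factors bind there.

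All members but RING1 were detected in every UMI table. In HEK293T cells measured by LAST-seq, BMI1 was the highest member at 81.5 and 106 CPM in the 2 libraries (exact 95% Poisson intervals of each library's count, covering counting error only, 67.3 to 97.7 and 90.3 to 123.8). SUZ12 (65.3 and 48.4), EZH2 (59.0 and 41.8), RNF2 (31.6 and 49.0) and EED (33.01 and 45.7 CPM) followed, and each neighbour in this order overlapped the next. PCGF6 (27.4 and 24.5), CBX2 (21.8 and 23.9) and JARID2 (23.2 and 15.9 CPM) came below them, with CBX2 and JARID2 overlapping. EZH1, the PRC2 enzyme known from resting cells, was the lowest at 11.9 and 4.64 CPM, from 17 and 7 UMIs in 10 cells each. Since a UMI stands for 1 captured molecule, these levels were compared between genes without dividing by length. Capture may differ between genes, so the order is one of captured molecules and not of molecules in the cell. By CEL-seq2, HEK293T cells gave another order, led by SUZ12 at 231 and 157 CPM, with EZH2 (98.5 and 60.5), JARID2 (80.5 and 69.4), BMI1 (98.5 and 43.3), RNF2 (59.9 and 33), EZH1 (36.7 and 39.2) and EED (37.4 and 37.8 CPM) overlapping from one neighbour to the next. PCGF6 (30.9 and 26.1) and CBX2 (36.1 and 19.9 CPM) overlapped at the end of it.

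The order differed in WT eHAP1. CBX2 led at 64.2 and 65.3 CPM, ahead of SUZ12 (60.2 and 59.0) and EZH2 (50.4 and 50.2 CPM), with no overlap between these neighbours. JARID2 (21.9 and 25.6) and BMI1 (25.9 and 21.2 CPM) overlapped, as did EED (20.4 and 15.1) and RNF2 (17.5 and 17.7 CPM). EZH1 stood at 8.28 and 7.97 and PCGF6 at 5.57 and 4.96 CPM, the lowest of the 9. In KO, SUZ12 ranked first at 81.5 and 82.3 CPM. EZH2 (56.3 and 51.3) and CBX2 (54.0 and 46.5) overlapped next, then came BMI1 (35.9 and 39.5) and RNF2 (33.1 and 28.9 CPM), each apart from its neighbours. The lower end of the KO order (EED, JARID2, PCGF6 and EZH1) overlapped from one neighbour to the next, because JARID2 and EZH1 differed widely between the KO batches. Closeness of the 2 batches within a genotype bears on these orders only as far as the adjusted values allow.

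**Figure D1:**
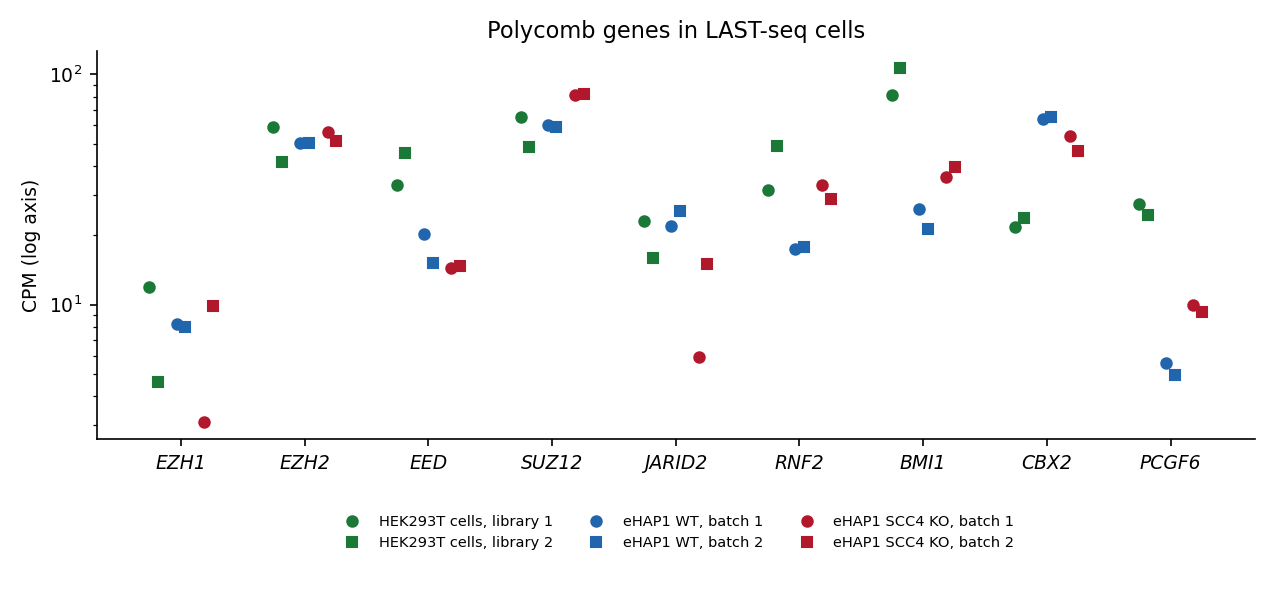
Level of 9 Polycomb genes (RING1 is left out) in the 6 LAST-seq cell libraries or batches, in CPM, on a log axis. Each point is 1 library or batch. BMI1 is highest in HEK293T (81.5 and 106) and CBX2 in WT eHAP1 (64.2 and 65.3).

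RING1, one of the 2 catalytic ligases of PRC1, had no UMI in any of the 7 HEK293T UMI libraries, where 3 UMIs, taken as the most that a count of 0 allows, correspond to 1.93 to 3.76 CPM. It was at 0 in all 73 and 75 WT cells. In KO it had the value 1 in 2 of 77 and 3 of 76 cells. The gene lies at chr6:33208500-33212722 (plus strand, GRCh38), and its neighbourhood was thinly covered as well. Of 38 protein-coding genes within 500 kb, 34.2% were detected in each LAST-seq HEK293T cell library against 54.2% and 56.6% of 1012 other protein-coding genes of chromosome 6. The shares were 47.4% against 62.0% and 61.8% in the WT batches and 57.9% and 55.3% against 66.0% and 66.6% in the CEL-seq2 cell libraries. SMART-seq lysate did not show this gap (63.2% and 71.1% against 62.5% and 65.8%), and there RING1 had 3 reads and 8 reads. Whether the lack of RING1 UMIs reflects its level in the cells or the counting at this locus was not tested.

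The comparison of SCC4 KO with WT asked how the members' RNA changed when cohesin loading was disrupted. None of the 9 members that passed the level filter of 0.1 UMI per cell was past 2-fold in both batches, where 5.94% of 15594 genes were past 2-fold higher and 5.23% lower. RING1 did not pass the filter. With 2 batches per genotype and adjusted values, this comparison carried no test. The median of the members' mean log2 fold change was 0.10, and that of all genes 0.05, each with 0.5 UMI added per batch.

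Higher in KO in both batches stood 5 members (EZH2, SUZ12, RNF2, BMI1 and PCGF6) and 3 lower in both (EED, JARID2 and CBX2), while 40.3% of all genes were higher in both and 33.9% lower in both. EZH2 barely moved (KO over WT ratios of 1.12 and 1.02), and it was no longer higher in both batches under trimmed-mean or size-factor scaling. RNF2, an E3 ligase of PRC1, had ratios of 1.89 in batch 1 and 1.63 in batch 2, and PCGF6, a subunit of a variant PRC1, had 1.79 and 1.88. BMI1, the PCGF subunit of canonical PRC1, had 1.39 and 1.86. All 3 therefore fell short of 2-fold in each batch. Fitted as if they were counts, the same values gave 5 of 9 members called in edgeR (SUZ12, RNF2 and BMI1 higher, JARID2 and CBX2 lower), where 28.3% of all genes were called, but such a fit takes the adjusted batches as independent.

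The PRC2 scaffold SUZ12 had KO over WT ratios of 1.36 and 1.39. SUZ12P1, a partial copy of SUZ12 whose reads could be exchanged with it, also stood higher in KO, at 19.6 and 23.7 CPM against 11.8 and 10.0 in WT. CBX2 had ratios of 0.840 and 0.713 and EED 0.710 and 0.974. JARID2 had ratios of 0.270 and 0.589 and was past 2-fold lower in batch 1 but not in batch 2. EZH1 had 0.376 and 1.24, so that its direction differed between the batches. Past 2-fold in batch 1 alone, 14.4% of all genes were lower, and EZH1 and JARID2 were among them, whereas none of the 9 members was past 2-fold in batch 2, where 15.5% of genes were higher and 9.48% lower.

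**Figure D2:**
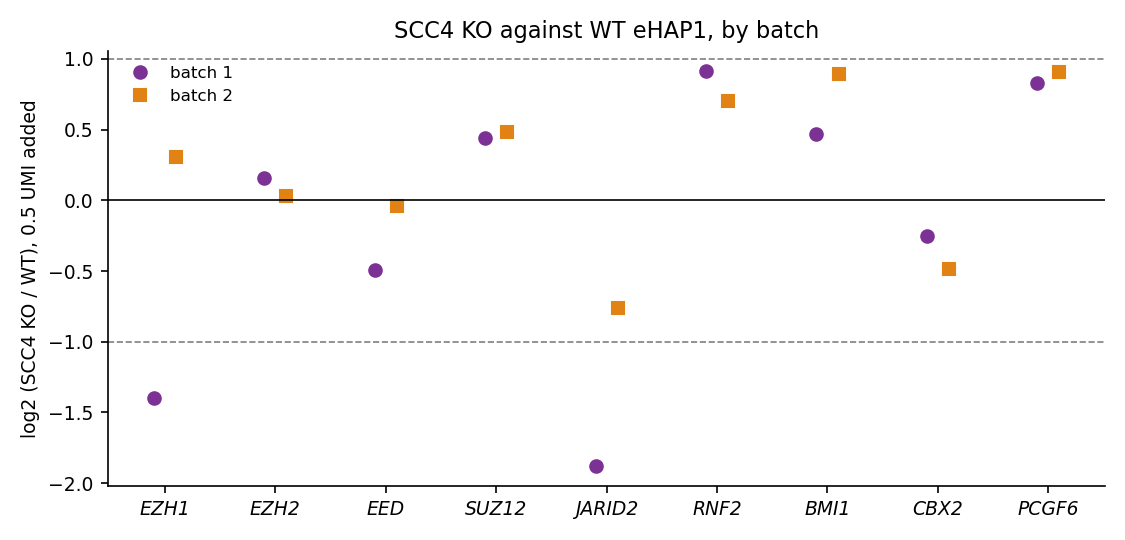
log2 ratio of SCC4 KO over WT for 9 Polycomb genes, with 0.5 UMI added, 1 point per batch; dashed lines mark 2-fold. RNF2 and PCGF6 lie between 0.70 and 0.92 in both batches, while EZH1 (-1.40 and 0.30) and JARID2 (-1.88 and -0.76) differ between batches.

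JARID2 and EZH1 were the 2 members whose KO batches differed past 2-fold from each other. JARID2 was at 5.91 CPM in KO batch 1 and at 15.1 in KO batch 2, and EZH1 at 3.11 and 9.86, a pattern shared by 9.58% of 15284 genes in this direction and by 16.2% in either direction. The WT batches were within 2-fold for all 9 members, while 18.7% of all genes were past it. In cells, JARID2 had a value in 57 of 73 and 70 of 75 WT cells, but in 25 of 77 KO batch 1 cells and 74 of 76 KO batch 2 cells. EZH1 had a value in 37 of 73 and 48 of 75 WT cells, in 16 of 77 KO batch 1 cells and in 64 of 76 KO batch 2 cells. By this share, KO batch 1 stood apart from the other 3 batches for both genes.

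After thinning each cell to 50000 UMIs, which left out 1 and 2 WT cells and 1 and 0 KO cells, the share of cells with JARID2 was 63.6% and 71.9% in WT and 21.4% and 55.4% in KO, lower in both KO batches. The thinned share for EZH1 was 33.9% and 31.7% in WT and 13.4% and 42.8% in KO, on both sides of WT. For RNF2 the thinned share was 56.3% and 60.2% in WT and 78.7% and 72.9% in KO, and for PCGF6 it was 21.7% and 20.4% in WT and 37.4% and 35.5% in KO. BMI1 had 74.8% and 61.9% in WT and 83.7% and 86.4% in KO. Before thinning, RNF2 had a value in 55 of 73 and 68 of 75 WT cells and in 69 of 77 and 71 of 76 KO cells, PCGF6 in 24 and 37 WT and 40 and 54 KO cells, and BMI1 in 66 and 65 WT and 72 and 76 KO cells. EED had 67.0% and 47.9% in WT against 41.1% and 51.1% in KO, so that the genotypes overlapped, and 64 and 61 WT and 41 and 68 KO cells had a value for it before thinning. Thinning took the deposited eHAP1 values as if they were counts, and the part of the adjustment in these thinned shares was not tested.

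**Figure D3:**
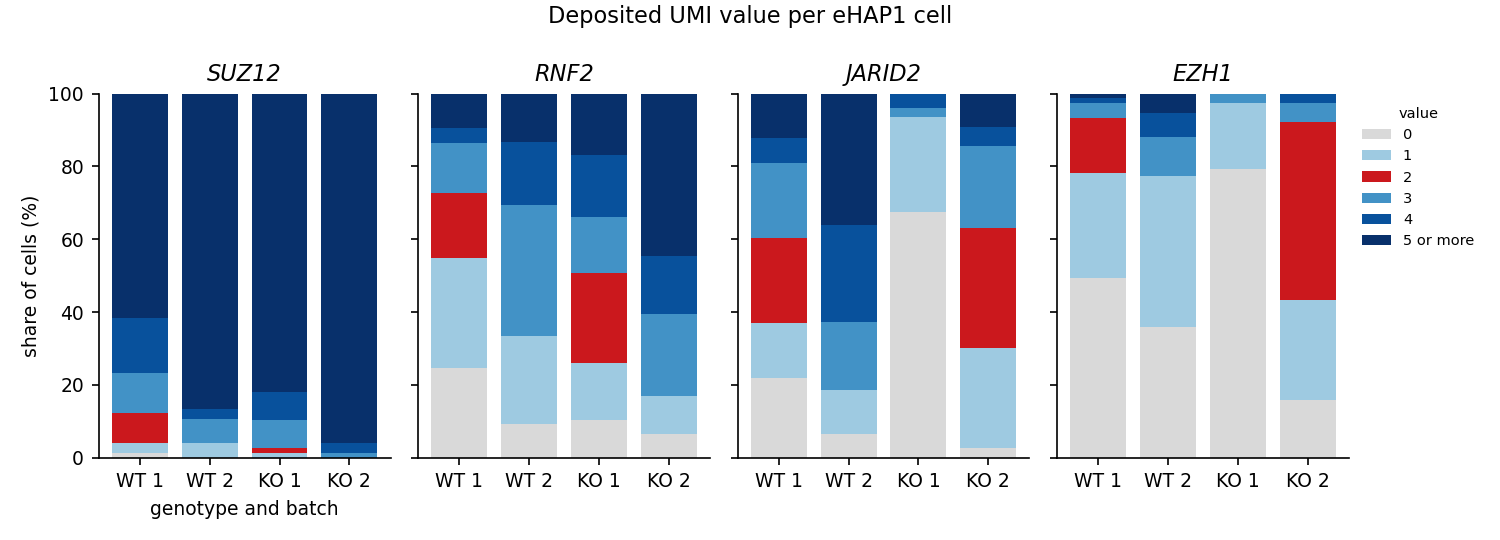
Share of eHAP1 cells at each deposited value from 0 to 5 or more, for selected Polycomb genes, in WT and KO batches 1 and 2. For JARID2, the value 2 is absent from WT batch 2 and KO batch 1, and 25 of 77 KO batch 1 cells have any value against 74 of 76 in KO batch 2.

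The spread over cells was small for the abundant members. After scaling each cell to the median depth, the excess squared coefficient of variation (the squared coefficient of variation minus that of counting noise at the same mean) of EZH2 was -0.008 and 0.030 in WT and 0.041 and 0.003 in KO. These values lay near the medians over all genes with a mean of at least 1 per cell, 0.039 and 0.081 in WT and 0.070 and 0.042 in KO. SUZ12 had 0.052 and 0.057 in WT and 0.025 and 0.008 in KO, and CBX2 0.038 and 0.020 in WT and -0.020 and 0.035 in KO. Among the scarcer members the batches disagreed: JARID2 had 0.131 and 0.20 in WT but 2.02 and -0.128 in KO, and EZH1 had 0.041 and 0.440 in WT and 0.846 and -0.203 in KO. PCGF6 had 1.21 and 0.296 in WT and 0.312 and 0.068 in KO. Some of these values lie under the mean of 1 per cell set for the medians and are unstable. They are JARID2 in KO batch 1 (mean 0.49), EZH1 in WT and KO batch 1 (0.84 and 0.26) and PCGF6 in every batch but KO batch 2. Variance below the mean was present in 11.5% of genes of mean 1 to 8 in KO batch 2 against 1.09% in WT batch 2, and the part of the adjusted values in these spreads was not tested.

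Across cells, correlations between members were weak. Spearman correlations over the 36 pairs of the 9 members had medians of 0.010 and -0.001 in the WT batches and -0.007 and -0.004 in the KO batches, with extremes of -0.252 and 0.272. No pair was above 0.2 in all 4 batches. These are descriptions over 73 to 77 cells of 1 batch each, sharing depth and batch. Some members had few values per cell (means of 0.26 for EZH1 and 0.49 for JARID2 in KO batch 1). Counting noise at such means lowers a correlation, so these values cannot show that members vary independently.

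HEK293T and WT eHAP1 were compared within LAST-seq to ask how the Polycomb genes differ between the lines. Line, medium, sort gate, number of cells pooled, spike-in, depth and the adjustment of the eHAP1 values differed together and cannot be told apart. BMI1 and PCGF6 were past 2-fold higher in HEK293T in all 4 pairs of library and batch, and CBX2 past 2-fold lower, where 12.6% of 16157 genes were higher and 14.3% lower by this rule. BMI1, at 81.5 and 106 CPM in HEK293T, was 3.14 to 4.99 times its WT eHAP1 level, and PCGF6, at 27.4 and 24.5, was 4.40 to 5.52 times. CBX2 was at 21.8 and 23.9 CPM in HEK293T, 2.69- to 3.0-fold below WT eHAP1. The counting intervals of the HEK293T libraries were 19.5 to 37.4 and 17.3 to 33.8 CPM for PCGF6 and 14.8 to 30.9 and 16.7 to 33.03 for CBX2. These 3 calls held under each of the 3 scalings tried (total, trimmed-mean and size-factor).

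EED (ratios of 1.62 to 3.02) and RNF2 (1.78 to 2.80) were also higher in HEK293T without overlap, a pattern shared by 35.7% of all genes, with 31.1% lower without overlap, but not all 4 of their pairs passed 2-fold. EZH1, EZH2, SUZ12 and JARID2 overlapped between the lines. Scaling mattered for this comparison, since the median log2 fold change of all genes was 0.07 with total scaling, -0.18 with trimmed-mean scaling and -0.15 with size factors. The share of called genes that were higher in HEK293T was 46.9%, 35.6% and 36.8% in the same order, and SUZ12 and JARID2 became lower without overlap under the last 2 scalings. The members' median was -0.02 with total scaling. Genes of S phase, G2 and mitosis, summed over a list of 15, were at 2235 and 2614 CPM in HEK293T, 2112 and 2116 in WT and 1962 and 1949 in KO, with MCM2 at 0 in each, and their part in the members' differences was not tested.

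**Figure D4:**
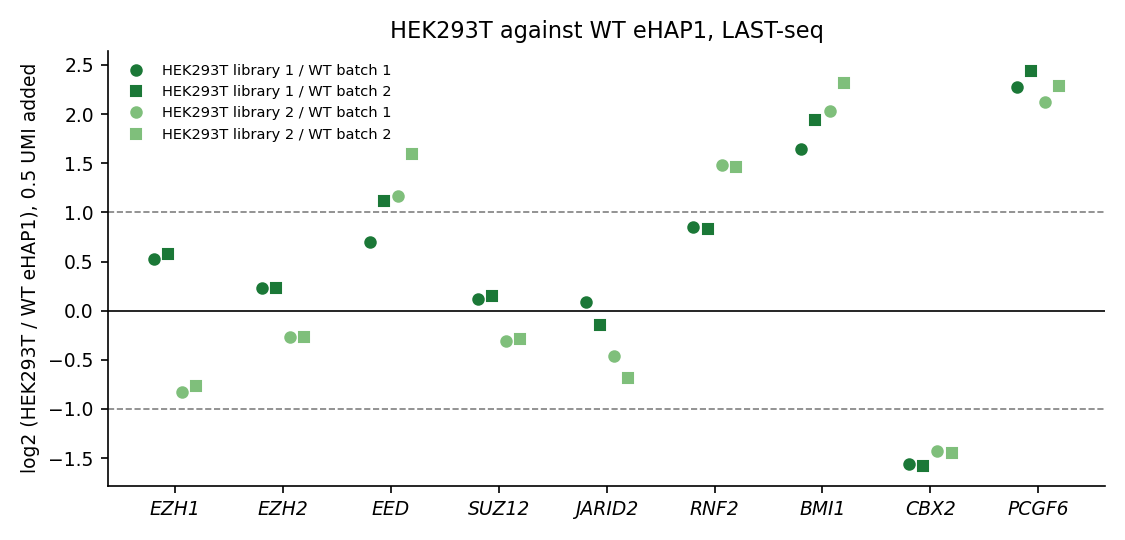
log2 ratio of HEK293T over WT eHAP1 (LAST-seq, 0.5 UMI added) for 9 Polycomb genes, 1 point for each of the 4 pairs of library and batch; dashed lines mark 2-fold. BMI1 (1.65 to 2.32) and PCGF6 (2.12 to 2.44) lie above and CBX2 (-1.58 to -1.43) below in all 4 pairs.

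LAST-seq and CEL-seq2 were compared on HEK293T single cells to see whether the 2 chemistries report the same Polycomb levels. SUZ12 was at 65.3 and 48.4 CPM by LAST-seq and at 231 and 157 by CEL-seq2. JARID2 was at 23.2 and 15.9 against 80.5 and 69.4, and EZH1 at 11.9 and 4.64 against 36.7 and 39.2 CPM. In edgeR's quasi-likelihood test with Benjamini-Hochberg adjustment over 11261 genes, SUZ12 was lower in LAST-seq by a log2 fold change of -1.43 ± 0.31 (SE, adjusted p = 0.00984), JARID2 by -1.61 ± 0.38 (adjusted p = 0.0135) and EZH1 by -1.87 ± 0.57 (adjusted p = 0.0373). These were 3 of 9 members tested, where 26.2% of all genes were called, 14.9% lower and 11.3% higher.

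The other 6 members did not pass the test. Their log2 fold changes in edgeR were -0.31 ± 0.35 for EZH2 (adjusted p = 0.55), 0.38 ± 0.37 for EED (adjusted p = 0.49), 0.13 ± 0.39 for RNF2 (adjusted p = 0.84), 0.75 ± 0.37 for BMI1 (adjusted p = 0.164), 0.04 ± 0.45 for CBX2 (adjusted p = 0.96) and 0.19 ± 0.42 for PCGF6 (adjusted p = 0.78). An adjusted p above the threshold does not show that the methods gave equal levels of these genes. SUZ12P1 differed more than SUZ12 itself, with 129 and 119 UMIs in CEL-seq2 against 11 and 4 in LAST-seq (log2 fold change -3.66, edgeR adjusted p = 0.00183), and the part of reads divided between SUZ12 and its copy in the SUZ12 value was not tested. The calls depended on single libraries: without the second LAST-seq library 0 of 9 members were called (edgeR adjusted p of 0.0964 to 0.137 for the 3 genes, 3 members at an unadjusted p under 0.05). Without the first LAST-seq library SUZ12 was not called (adjusted p = 0.0577), without the second CEL-seq2 library EZH1 was not (adjusted p = 0.0845), and without the first CEL-seq2 library BMI1 was called higher in LAST-seq as well (log2 fold change 1.31, adjusted p = 0.015, all edgeR).

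**Figure D5:**
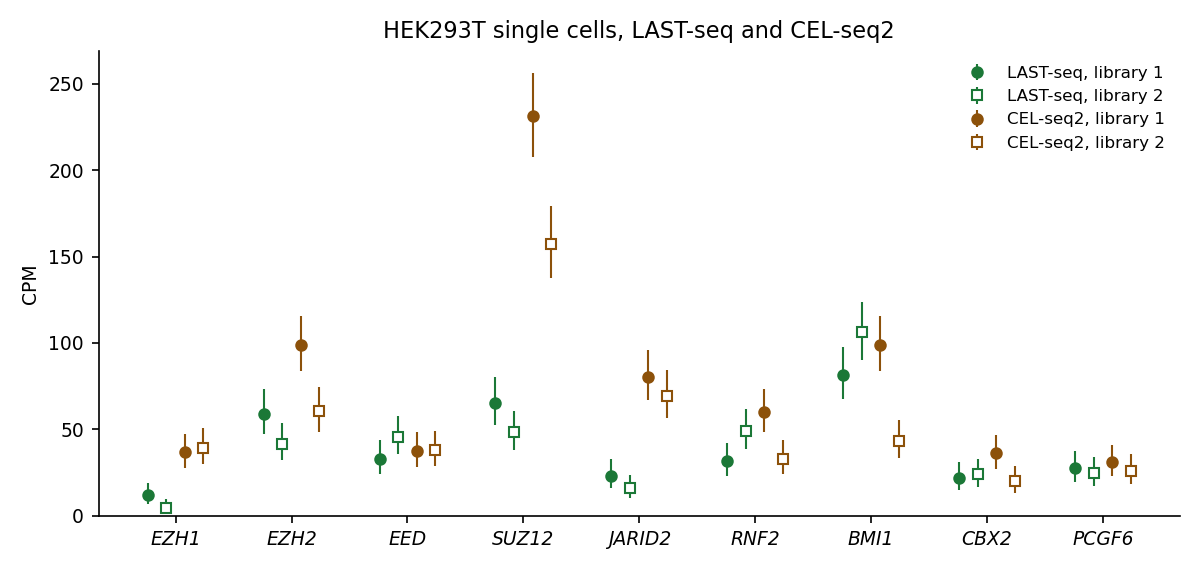
CPM of 9 Polycomb genes in 2 LAST-seq and 2 CEL-seq2 libraries of HEK293T single cells; bars are exact 95% Poisson intervals of each library's count, covering counting error only. SUZ12 lies at 65.3 and 48.4 by LAST-seq and at 231 and 157 by CEL-seq2.

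Cells were also set beside pooled HEK293T inputs of the same method, with 1 library per input and no test. In LAST-seq, no member was past 2-fold from the 15-pg RNA with both cell libraries, where 9.66% of 15729 genes were higher and 11.5% lower. Against the LAST-seq lysate, BMI1 was higher (38.9 CPM in lysate, ratios of 2.10 and 2.73, 95% counting intervals 1.40 to 3.22 and 1.85 to 4.15), where 18.4% of 15291 genes were higher and 9.85% lower. With trimmed-mean or size-factor scaling BMI1 was not past 2-fold there and CBX2 was lower instead.

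In CEL-seq2, EZH1, SUZ12 and JARID2 were higher in cells than in lysate with both cell libraries, where 22.2% of 19560 genes were higher and 7.24% lower. SUZ12 was at 60.4 CPM in the CEL-seq2 lysate, JARID2 at 23.7 and EZH1 at 10.7, and the cell over lysate ratios were 3.83 and 2.61, 3.40 and 2.93, and 3.45 and 3.68. These lysate levels lay beside LAST-seq lysate levels of 52.7, 22.6 and 13.8 CPM. This comparison shares its CEL-seq2 cell libraries with the one between the methods, so it is no separate evidence on them. The median log2 fold change of all genes was 0.43 with total scaling and 0.07 with trimmed-mean scaling, and the 3 members were past 2-fold with either. The share of called genes that were higher was 75.4% with the first and 64.3% with the second.

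SMART-seq lysate gave a different scale, in CPM per kilobase of exon, here counted in reads. In the first lysate library RNF2 (21.3), BMI1 (17.7), EED (14.3), EZH2 (12.4) and PCGF6 (11.5) were the highest members on this scale, and SUZ12 (5.91), EZH1 (3.07), CBX2 (2.32), JARID2 (1.33) and RING1 (0.205) the lowest. Each of the 6 SMART-seq cells differed by no more than sampling noise from a well of the second lysate library (lowest chi-square per gene 0.923, next pair 43.5), and 3 pairs of wells within the first lysate library did so too, so SMART-seq cells entered no comparison. PCGF6 and RING1 were not listed in those cells. COMMD3-BMI1, a readthrough transcript sharing 22.8% of the exon bases of BMI1, had 0 counts in every table.

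The wider Polycomb machinery was read from lists of complex members and textbook targets. Between KO and WT, 4 genes of these lists were past 2-fold in both batches, where 11.2% of all genes were past it in either direction. By the share of cells with a value, a measure added after seeing the data, 0 genes of these lists were past 2-fold in both batches. This share has a ceiling, so for abundant genes it can hardly move 2-fold. LHX2, for instance, averaged 46.2 and 76.9 per WT cell and 14.8 and 26.8 per KO cell. The 0 therefore does not bear on calls of such genes. PCGF3, a PCGF partner of PRC1, was lower in KO (110 and 107 CPM in WT, 40.8 and 45.9 in KO), and it was the only one of 3 ring and PCGF partners tested that was called. None of 8 PRC2 accessory genes, 9 canonical PRC1 genes, 14 variant PRC1 genes, 10 genes of the H2A deubiquitinase PR-DUB and 6 opposing demethylases and trithorax genes was past 2-fold in both batches. The median log2 fold change of PRC2 accessory genes was -0.21, against 0.05 for all genes. That of the opposing list was 0.51 over both batches, but 0.08 in batch 1 and 0.48 in batch 2.

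Of 11 textbook Polycomb targets tested, 1 was higher and 2 lower in KO. The homeobox gene HOXA9 was higher (27.3 and 24.3 CPM in WT, 59.0 and 53.1 in KO). The developmental transcription factor genes LHX2 (458 and 469 in WT, 178 and 174 in KO) and OLIG2 (8.55 and 13.4 in WT, 3.89 and 2.31 CPM in KO) were lower. The targets' median log2 fold change was -0.04. Targets thus stood on both sides, as did the members.

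Between HEK293T and WT eHAP1, 16 genes of these lists were past 2-fold in all 4 pairs, where 26.8% of all genes were past it in either direction, and 10 of the 16 were textbook targets, 7 higher and 3 lower in HEK293T of 14 tested. GATA6 (34.4 and 33.1 CPM in HEK293T) and GATA4 (19.0 and 23.2), genes of endoderm and heart development, and PAX3 (9.83 and 3.98), a neural crest and muscle gene, were at 0 in both WT batches. Against a nominal floor of 3 counts per WT batch, their lower HEK293T level was 81.4, 46.5 and 9.76 times the higher floor. These are not lower bounds, since the WT values are adjusted and counting error in HEK293T is not included. PAX3 had only 14 and 6 UMIs in the HEK293T libraries. LHX2 was at 2.81 and 0.663 CPM in HEK293T against 458 and 469 in WT eHAP1. TBX3 was higher in HEK293T (38.6 and 53.7 against 7.47 and 2.85 CPM), and NKX2-2 was lower (0.702 and 0.663 against 11.4 and 10.0 CPM). GATA6, GATA4 and PAX3 passed the level filter only through HEK293T, and NKX2-2 only through WT eHAP1. The filter thus favoured their calls, so the 10 of 16 is not a result about targets as a set.

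Among complex members, 3 of the 10 differences of greatest size were in variant PRC1 and PR-DUB. BCORL1, a PRC1 corepressor subunit, was at 5.62 and 9.94 CPM in HEK293T against 145 and 145 in WT eHAP1. L3MBTL2, a subunit of the PCGF6 form of PRC1, was higher in HEK293T, at 49.9 and 65.0 against 13.6 and 13.7 CPM, as was PCGF6 itself. Of 14 variant PRC1 genes tested, though, only 1 was higher and 1 lower by this rule, and 12 were neither. Their median log2 fold change was -0.12. ASXL2 of PR-DUB was lower in HEK293T, at 13.3 and 11.3 against 36.1 and 34.8 CPM. Among 10 PR-DUB genes tested, 1 was higher and 1 lower, so this list went to both sides. None of 7 PRC2 accessory genes was past 2-fold in all 4 pairs.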

How the data were processed

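The authors demultiplexed with bcl2fastq 2.20 and counted exon reads with zUMIs on GRCh38 with GENCODE. The HEK293T UMI tables and SMART-seq read tables were deposited as counts, subsampled by the authors. The eHAP1 table was deposited as whole numbers that skip values, and was treated as a score rather than as counts. Values were scaled to 1000000 per library or batch (CPM), and log2 fold changes used 0.5 UMI added per group. Genes were left out where the average of the group means was under 0.1 UMI per cell. The test of LAST-seq against CEL-seq2 used edgeR's own expression filter instead. LAST-seq and CEL-seq2 were compared with edgeR 4.0.16 (quasi-likelihood, trimmed-mean scaling, Benjamini-Hochberg). On simulated data for 11261 genes it recovered 131 of 200 3-fold changes with 5 false calls. The simulation set the same spread between libraries for every gene, not estimated from these libraries, so its figures may not hold for the real comparison. DESeq2 1.42.0 served as an alternative. Sums are over 73 to 77 eHAP1 or 10 HEK293T cells, and doublets were not searched for in these sorted wells. Gene names came from GENCODE (99.6% of identifiers matched, and all 10 members) and promoters from RefSeq. All members are named, and of the wider lists up to 10 past the call rule per comparison that average 1 UMI or more in a cell, by size of fold, of which 1 is not reported here. Members and lists were chosen with earlier results of these data known. Batch numbers are not known to pair the samples. The correlation of batch deviations of WT and KO was 0.016, but an adjustment for batch would remove shared deviations, so this value cannot decide it.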

Additional observations from a re-analysis of the deposited data

Results flagged for a closer look

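RING1 had reads only outside the UMI tables of HEK293T: 8 reads in the 16 wells of the second SMART-seq lysate library (6 reads without the wells that equal a cell) and 3 reads in the 10 wells of the first, against 0 UMIs in all LAST-seq and CEL-seq2 libraries of this line. These reads lie in libraries outside the comparisons between groups, and reads without molecular identifiers are not independent molecules. Scaled by depth they come to 0.637 CPM in the second and 0.372 CPM in the first, under the 1.93 to 3.76 CPM that 3 UMIs make in the UMI libraries. No negative control was among the samples analysed here.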

How the results depend on the processing

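Between KO and WT, 0 members were past 2-fold in both batches, 1 (RING1) with no filter, 3 at 1.5-fold, and 0 to 2 with 1 batch alone. Tests on the eHAP1 values called 5 members (SUZ12, RNF2 and BMI1 higher, JARID2 and CBX2 lower) with edgeR without the replicate block, 5 with the block and 5 with DESeq2 and the block, at 28.3%, 31.8% and 19.2% of all genes. The batch numbers are not known to pair the samples, and these fits take the adjusted batches as independent. Between HEK293T and WT eHAP1, 3 members became 5 at 1.5-fold and 5 with edgeR, and 3 to 5 when a library or batch was left out. The count of 3 members between LAST-seq and CEL-seq2 was 0 to 4 with a library left out. The median excess squared coefficient of variation, over members with a mean of at least 1 per cell, was 0.035, 0.132 without depth scaling and 0.012 to 0.103 in 1 batch alone. The median share of wells with a value was 95.4%, and 70.5% when thinned to 50000 UMIs. Of the wider lists, 4 genes between KO and WT became 12 at 1.5-fold and 11 to 13 with 1 batch alone. They became 0 by share of cells, an alternative chosen after seeing the data that can hardly move 2-fold for abundant genes. Between the lines, 16 became 25 at 1.5-fold. The causes were not tested. No member called between the lines or the methods reversed its direction under these alternatives. Between KO and WT no member was called, so a reversal could not be counted there. For single members, 104 of 117 values between KO and WT, 92 of 99 between the lines and 57 of 63 between the methods moved by less than the spread or kept their call. Between KO and WT and between the lines, a value with a batch or library left out lies within this spread by construction. The counts for these comparisons therefore say little of how stable the values were. Depth limits low members such as EZH1, with 17 and 7 UMIs in the LAST-seq HEK293T cell libraries, and RING1, with 0.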
